A study of Drosophila melanogaster with 8 samples.

Results

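The effect of guide RNAs to twi was measured across all genes in S2R+ cells, a Drosophila cell line that resembles blood cells, by comparing the 4 libraries that received Twist guides with the 4 that did not. All 8 libraries of the series took part. Every library came from cells transfected with dCas9-VPR driven by an Actin promoter, a Cas9 that binds DNA without cutting it and carries a transcriptional activator. The groups, of 2 libraries each, received control guides, a pool of 5 guides to sna, a pool of 5 guides to twi, or both pools together. For the control guides the sample labels name a luciferase reporter promoter as the target, whereas elsewhere in the deposited descriptions they are called non-targeting. No selection of transfected cells is described, so each level is an average over the culture, and a change in the number of responding cells cannot be told apart from a change in RNA per cell. The presence of Snail guides entered the model as a covariate, so that the Twist effect is a comparison of the Twist group with the control group and of the group with both pools with the Snail group.

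Twist is a basic helix-loop-helix (bHLH) transcription factor that binds E-box sequences and specifies the mesoderm of the fly embryo, where it acts on genes for gastrulation, for the fibroblast growth factor (FGF) receptor Heartless and for muscle differentiation. Snail is a zinc-finger factor of the same tissue that represses genes of the neighbouring ectoderm. Tendon cells of the fly are ectodermal cells to which muscles attach.

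Total counts were 10752993 to 13351166 per library, and 9990 to 10393 genes had at least 1 count. Of 14161 genes listed, 8029 passed the filter on low counts and were tested. Levels are CPM (counts scaled to library size) after TMM normalisation, and a gene is called here when its adjusted p from the edgeR quasi-likelihood test is under 0.05. Of 12 hemocyte markers, srp (127 to 176 CPM), ush (91.9 to 159.6 CPM), crq (163 to 202 CPM) and Pvr (358 to 489.9 CPM) were present in every library, while nimC1 (0 to 0.18 CPM) and eater (0 to 0.417 CPM) were at or near 0. The summed hemocyte markers were 889 to 1043 CPM with Twist guides and 893 to 1161 CPM without, and 0 of the 10 tested were called by edgeR (2 at an unadjusted p under 0.05, 0 by DESeq2). Markers of neurons and glia summed to 13.3 to 18.2 CPM with and 12.5 to 15.4 CPM without Twist guides, with the glial gene repo at 0 to 0.18 CPM. Those of germline and ovarian soma summed to 109 to 121 CPM and 119.6 to 126 CPM. Of the 4 and 5 tested markers of these cell types 0 were called by edgeR or DESeq2, and 0 had an unadjusted p under 0.05. A longer list of neuronal and glial genes, described further on, had 4 of 15 tested called higher. The relative levels of genes followed transcript length to a differing degree in the libraries: Spearman's correlation across genes of a library's deviation from the mean of all libraries with transcript length ranged from -0.33 in the first Snail library to 0.29 in the first Twist library, and the control libraries lay at opposite signs (-0.29 and 0.26). The Twist effect over all 8 libraries had a correlation of 0.30 with transcript length across genes, which are not independent replicates. The correlation was 0.04 for Twist guides against control guides and 0.29 for both pools against Snail guides.

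With Twist guides the target rose together with a small set of genes. Of the 8029 genes tested, 63 were called (0.785%), 56 higher (0.697%) and 7 lower (0.0872%). The 56 rises had a median log2 fold change of 1.12 and ran from 0.33 to 10.88, and 30 of them exceeded 1. The 7 falls had a median of -0.41 and none was larger than 1.03. In 54 of the 56 rises and 6 of the 7 falls the 4 libraries with Twist guides did not overlap the 4 without, against 174 genes (2.17%) that lay wholly above and 182 (2.27%) that lay wholly below among all tested (4.43% together). The called genes were picked by a test on the same libraries, so their separation is no independent evidence. The count of calls rested on single libraries: it was 63 with all 8, 29 without the first Twist library and 488 without the second control library. Calls also fell to 34 without the first library with both pools, and 26 of the 56 rises and 0 of the 7 falls were called whichever of the 8 libraries was left out.

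**Figure D1:**
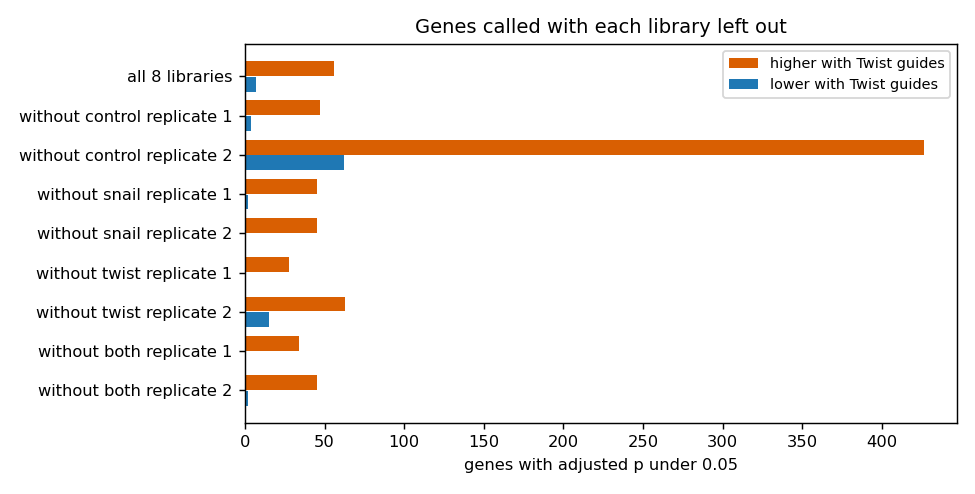
Number of genes with an adjusted p under 0.05, higher or lower with Twist guides, with all 8 libraries and with each library left out in turn. The bars run from 28 rises and 1 fall without the first Twist library to 426 rises and 62 falls without the second control library.

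The target responded in every library that received its guides. twi (FBgn0003900, at 22985374 to 23048325 of chromosome arm 2R in BDGP6.54) was not counted once in any library without Twist guides, and reached 26.3 and 28.2 CPM with Twist guides, and 13.7 and 12.7 CPM with both pools. The mean with Twist guides was 20.2 ± 8.19 CPM (SD, n = 4), at least 310.3-fold higher than without, taking a floor of 3 counts over the 4 libraries, and the adjusted p of the edgeR test was 7.4e-07. Levels in the libraries with both pools lay below those with Twist guides alone, without overlap. sna, the target of the other pool, was at 97.2 and 102 CPM with Snail guides and 124 and 122 CPM with both pools, and at no more than 0.186 CPM elsewhere. Its Twist effect was a log2 fold change of 0.30 ± 0.12 (standard error) with an adjusted p of 0.5, which became 0.045 without the second control library.

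Among the genes around twi, CG42741, which overlaps it on the opposite strand, was the only one called of 76 tested genes within 500 kb. Its reads numbered 0 in all 4 libraries without Twist guides, 8 and 7 in the Twist libraries, and 15 and 11 in those with both pools. That is at least 12.4-fold higher, with an adjusted p of 0.014 by edgeR, and the call was lost without the first Twist library (adjusted p = 0.056) or the first library with both pools (0.075). The sources used here do not say whether the authors counted reads by strand, so that reads of twi and of CG42741 cannot be told apart. CG9896 also lies within the span of twi on the opposite strand, so the same limit applies to its reads. It had 43 and 29 reads under control guides and 74 and 56 under Snail guides. Under Twist guides it had 122 and 45, and under both pools 139 and 144. Its log2 fold change of 1.04 ± 0.30 had an adjusted p of 0.32, and of 0.0061 without the second Twist library. CG9897 and CR42742, also within the span of twi, and the neighbour CG32833 had 0 to 3 counts in a library and were not tested.

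Several genes with very few reads in the absence of Twist guides rose. PGRP-LB, ect and acj6 passed the filter on low counts only through the libraries where they were high. The same holds at least for twi, CG42741, CG9416, CG13707, CG17032, Bili, nord, lmd, e and SK among the genes given here. CG3394, given below, averaged 0.683 CPM over the 8 libraries and may be a further case. A gene equally rare that did not rise was thus not tested. PGRP-LB, which encodes an amidase that degrades bacterial peptidoglycan and so dampens the Imd immune pathway, was at 0.183 and 0.464 CPM with control guides, 0.18 and 0.0834 with Snail guides, 26.1 and 19.3 with Twist guides, and 12.2 and 12.3 with both pools. Its mean rose 76.8-fold, from 0.228 ± 0.164 to 17.5 ± 6.65 CPM (SD, n = 4 each), with a log2 fold change of 6.21 ± 0.25 and an adjusted p of 1.3e-07. The groups were far apart, and the level with Twist guides alone exceeded that with both pools. dei, now named tx, encodes a bHLH factor of tendon cells (chromosome 3R, 26440778 to 26448991). It stood at 1.65 and 1.39 CPM with control guides, 2.61 and 2.09 with Snail guides, 134 and 97.4 with Twist guides, and 64.4 and 69.5 with both pools. This was a 47.2-fold rise, to 91.3 ± 31.8 from 1.93 ± 0.535 CPM (SD, n = 4 each; log2 5.50 ± 0.26, adjusted p = 5.2e-05). The libraries with Twist guides all lay far above those without.

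ect had 0 counts in the control libraries and in the second Snail library, and 0.0901 CPM in the first Snail library, against 4.12 and 3.82 CPM with Twist guides and 1.33 and 1.29 CPM with both pools. The ratio of the levels was 123 with a counting interval of 21.7 to 4889.8 (log2 6.29 ± 0.56, adjusted p = 0.00013). acj6, a POU-domain factor that sets the identity of olfactory neurons, was at 0.25 CPM in the second Snail library and at 0 in the other libraries without Twist guides, and at 5.18, 4.34, 2.67 and 1.94 CPM in the 4 with them. The ratio was 54.2 (counting interval 18.3 to 265), with a log2 fold change of 5.48 ± 0.57 and an adjusted p of 0.0006. Both genes were thus all but undetected without Twist guides, and both stood lower with both pools than with Twist guides alone. CCKLR-17D3, a receptor for cholecystokinin-like peptides, rose from 0.464 to 1.53 CPM without Twist guides to 18.9 and 12.9 CPM with Twist guides and 11.7 and 12.4 CPM with both pools. The mean rose 16-fold, from 0.876 ± 0.502 to 14 ± 3.33 CPM (SD, n = 4 each; log2 3.97 ± 0.29, adjusted p = 5.2e-05).

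nvy and CG3376 are neighbours on chromosome 2R and both rose. nvy, a co-repressor of the MTG/ETO family, was at 2.29 and 1.95 CPM with control guides, 1.26 and 1.25 with Snail guides, 26 and 27 with Twist guides, and 10 and 7.02 with both pools. It rose 10.4-fold on the means (log2 3.30 ± 0.19, adjusted p = 3.5e-06). CG3376 was at 11 and 14.9 CPM with control guides, 6.94 and 7.93 with Snail guides, 107 and 102 with Twist guides, and 41.7 and 33.8 with both pools. It rose 6.99-fold (log2 2.72 ± 0.15, adjusted p = 2.3e-05), and both genes kept the same order of groups, with Snail guides lowest and Twist guides alone highest. nord, on the other side of CG3376 at a gap of 2.92 kb, was also called, at 0.55, 0.371, 0.18 and 0.25 CPM without Twist guides against 2.52, 2.28, 0.667 and 1.02 with them (log2 2.20, adjusted p = 0.0087). CG3394, beyond nvy, had a log2 fold change of 1.54 ± 0.43 with an adjusted p of 0.25. The 3 tested genes before nord (CG3363, CG3362 and CG3356) lay between -0.00 and 0.23, and betaTub60D and slbo, beyond CG3394, at 0.05 and 0.28, none of them called. This run of genes was picked out after its values were seen. Over the whole genome 7 of the 63 called genes (11.1%) had another called gene within 50 kb, against 606 of the 7800 genes not called (7.77%), and this difference was not tested.

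The remaining rises named by size were smaller or rarer. sano (serrano, a gene of planar cell polarity) went from 7.24 and 7.05 CPM with control guides and 11.9 and 11.3 with Snail guides to 49.6 and 50.2 with Twist guides and 35.6 and 35.3 with both pools. Replicates of a group differed by far less than the groups did (log2 2.17 ± 0.22, adjusted p = 0.0053). CG9416, at 0.0916 to 0.278 CPM without Twist guides, was at 3.43 and 8.23 CPM with Twist guides and 1.25 and 0.924 with both pools, so that its Twist libraries differed widely (log2 3.94 ± 0.57, adjusted p = 0.0088, or 0.055 without the first control library). CG6231 rose from 0.991 to 2.41 CPM to 12.3 and 15.4 CPM with Twist guides and 4.33 and 2.68 CPM with both pools (log2 2.42 ± 0.33, adjusted p = 0.0078). CG13707 (log2 2.62), CG17032 (2.48), Bili (2.40), CG12402 (2.06) and CG9150 (2.06) also rose, with adjusted p from 0.003 to 0.0087. Each of these was called whichever library was left out, except Bili, which was lost without the first Twist library (adjusted p = 0.056).

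**Figure D2:**
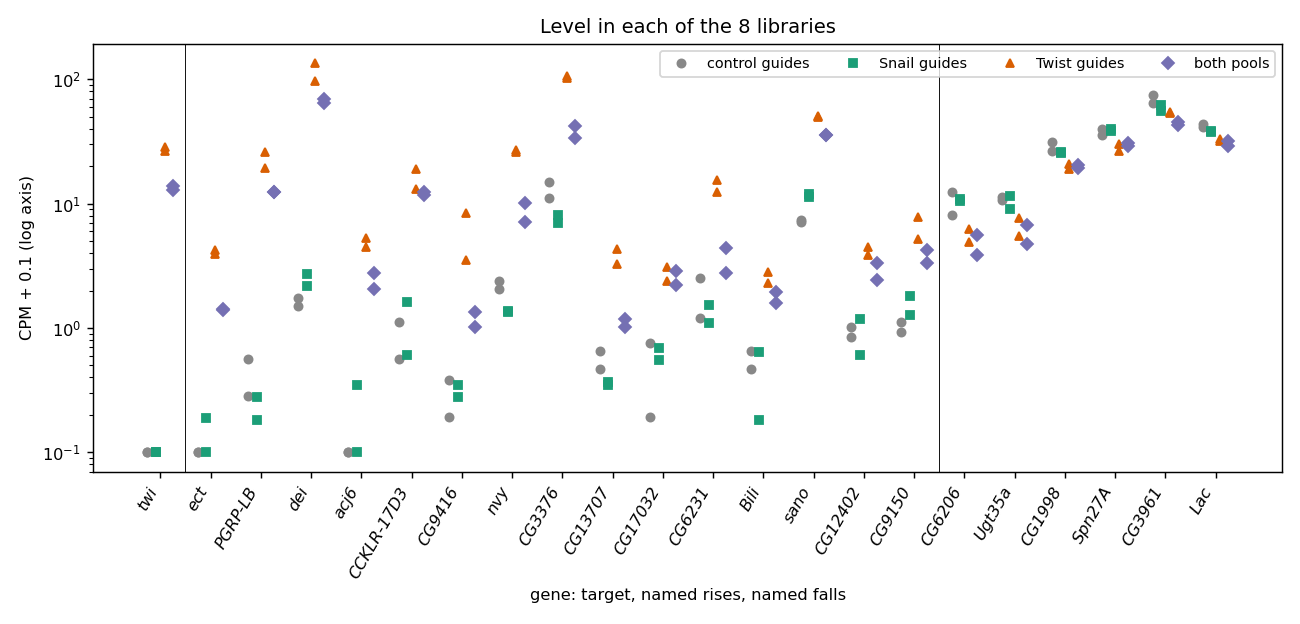
Level of twi, the 15 named rises and the 6 named falls in each of the 8 libraries, on a log axis of CPM with a small constant added so that 0 can be drawn. Each point is a library, and the rises and falls were chosen so that the points with Twist guides (triangles and diamonds) lie on one side of those without (circles and squares).

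The gene lists described from here on were drawn up with earlier results of these data known, so that their called members are no independent evidence of a direction. Over all 8029 genes tested DESeq2 called 100. Calls over all genes rose strongly without the second control library, as given above. List counts from that setting are thus no sign of a response particular to a list. Of 28 mesoderm genes with known Twist input 17 were tested, and 0 were called in either direction, with 4 at an unadjusted p under 0.05, against 642 of all 8029 genes (8%), and 1 called by DESeq2. Without the second control library 2 were called higher. Their median log2 fold change was 0.16 with 12 of 17 above 0, against -0.01 with 47.8% above 0 over all genes tested. T48, a membrane protein of mesoderm invagination, was at 31.3 to 34.5 CPM without Twist guides and at 36.2 to 41.6 CPM with them, which did not overlap (log2 0.25 ± 0.07, adjusted p = 0.26). Mef2, the myogenic factor downstream of Twist in the embryo, had a log2 fold change of 0.11 ± 0.09 (adjusted p = 0.77) from levels of 35.2 to 52.4 CPM without and 39.1 to 46.7 CPM with Twist guides, which overlapped. how, an RNA-binding protein of muscle and tendon cells, had 0.25 ± 0.11 (adjusted p = 0.62, or 0.0022 without the second control library). The one member called by DESeq2 was htl, described with the genes whose Twist effect differed with Snail guides.

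The FGF and EGF receptor pathways held 0 called genes of 27 tested, with a median log2 fold change of 0.03, 2 at an unadjusted p under 0.05 and 1, htl, called by DESeq2. The FGF ligand genes pyr and ths had log2 fold changes of -0.44 and 0.26, and the pathway kinases and adaptors lay near 0, as with Ras85D at -0.10 ± 0.05 (adjusted p = 0.67). Among 15 tested muscle regulators and muscle proteins none was called by edgeR, with 2 at an unadjusted p under 0.05 and 2 called by DESeq2, and the median was 0.11. Without the second control library 4 were called higher, among them lmd (adjusted p = 0.032), sls (0.0099) and tmod (0.021). lmd, a zinc-finger regulator of myoblasts, was at 0.0916 CPM in the first control library and 0 in the other libraries without Twist guides, and at 1.14, 0.22, 0.75 and 1.02 CPM with them. The groups did not overlap, but the adjusted p was 0.054. sls, which encodes a titin-like protein, was at 0.834 to 2.78 CPM without and 2.28 to 5.11 CPM with Twist guides, which overlapped (log2 1.37 ± 0.38, adjusted p = 0.26).

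Of 12 tested genes of tendon cells and muscle attachment, 2 were called higher, dei and kon, 0 lower, and all 12 had a log2 fold change above 0 with a median of 0.25. Over all genes tested 0.697% were called higher and 47.8% lay above 0. In this list 4 had an unadjusted p under 0.05, against 8% of all genes tested. Without the second control library 5 were called higher. kon, a transmembrane proteoglycan needed by muscles to find their attachment sites, was at 0.916 and 0.928 CPM with control guides, 0.811 and 1.17 with Snail guides, 3.81 and 2.57 with Twist guides, and 4.5 and 5.08 with both pools. It rose 4.18-fold (log2 2.03 ± 0.24, adjusted p = 0.0018), and unlike dei it was no lower with both pools than with Twist guides alone. sr, the master regulator of tendon cell fate, had a log2 fold change of 0.34 and slow, a secreted ligand at the attachment site, of 0.70, neither of them called. rhea (talin) had 0.26 ± 0.08 (adjusted p = 0.29, or 0.75 with the trend of each library with transcript length removed). Of the 25 bHLH factors and partners tested besides twi, only dei was called, and 3 were called higher without the second control library. Of these 25, 4 had an unadjusted p under 0.05, and the median was 0.02. gce, a bHLH-PAS receptor of juvenile hormone, had a log2 fold change of 0.33 ± 0.07 with an adjusted p of 0.064 and was called by DESeq2. With the trend with length removed, the edgeR adjusted p of gce was 0.4.

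Among genes of the basement membrane, integrins and matrix proteases 3 of 32 tested members rose, 0 fell and the median was 0.08; without the second control library 5 were called higher. Over all genes tested 0.697% were called higher. Of the 32 members, 12 had an unadjusted p under 0.05, against 8% of all genes tested. trol, the perlecan of the basement membrane, was at 11 and 15.1 CPM with control guides, 10.6 and 13.4 with Snail guides, 50.8 and 40.9 with Twist guides, and 45.7 and 39.6 with both pools. It rose 3.53-fold, from 12.5 ± 2.13 to 44.2 ± 5.13 CPM (SD, n = 4 each; log2 1.82 ± 0.12, adjusted p = 1.7e-05), by the same amount without and with Snail guides (log2 1.81 and 1.82). Mmp1, a secreted matrix metalloprotease, was at 41 to 52.4 CPM without Twist guides, 112 and 108 CPM with Twist guides, and 74.2 and 76.2 CPM with both pools. Its log2 fold change was 0.91 ± 0.13 with an adjusted p of 0.017, which became 0.05 and 0.051 without the first and the second Twist library. Pax (paxillin, an adaptor of integrin adhesions) went from 269 to 297 CPM without to 476, 439, 389 and 396 CPM with Twist guides, a 1.48-fold rise (log2 0.56 ± 0.06, adjusted p = 0.00093). The collagen IV chains vkg and Cg25C had log2 fold changes of 0.41 and 0.36, the laminin chains LanA, LanB1 and LanB2 of 0.31, 0.02 and 0.06, and the integrin beta chain mys of 0.01, none of them called. if, an integrin alpha chain, had 0.65 ± 0.28 (adjusted p = 0.62).

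In the Imd and Toll list 2 of 23 tested members rose, PGRP-LB and pirk, 0 fell and the median was -0.03. Over all genes tested 0.697% were called higher. Of the 23, 5 had an unadjusted p under 0.05, against 8% of all genes tested. pirk encodes an intracellular inhibitor of Imd signalling, and like PGRP-LB it acts to dampen the pathway. It was at 40.3 to 48.4 CPM without Twist guides, 57 and 55.6 CPM with Twist guides, and 66.7 and 79.9 CPM with both pools (log2 0.50 ± 0.09, adjusted p = 0.026), and the call was lost on leaving out any of 5 of the 8 libraries. The pathway's core was not called: imd had a log2 fold change of -0.08, the NF-kB factor Rel of 0.02, and Dredd of -0.14. The Toll-side factors dl and Dif had 0.14 and 0.03.

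Among neuronal and glial genes 4 of 15 tested rose and 0 fell, with a median of 0.09 and 13 above 0. These were acj6 and CCKLR-17D3, given above, and the cell-adhesion genes Nrg and Nrx-1. They were also the 4 of the 15 with an unadjusted p under 0.05, against 8% of all genes tested. Over all genes tested 0.697% were called higher and 47.8% lay above 0. Nrg (neuroglian) was at 36.9 to 45.8 CPM without and 51.1 to 61.6 CPM with Twist guides (log2 0.42 ± 0.06, adjusted p = 0.0087), and Nrx-1 (neurexin) at 6.42 to 7.24 CPM without and 9.55 to 12.8 CPM with them (log2 0.68 ± 0.13, adjusted p = 0.027). With the trend of each library with transcript length removed, the adjusted p became 0.11 for Nrg and 0.19 for Nrx-1, and the calls held on leaving out 6 and 2 of the 8 libraries. The pan-neuronal markers elav and n-syb had log2 fold changes of 0.08 and -0.01, and brp of 0.20, none of them called. Nrg also gave the single call among 21 tested epithelial junction and polarity genes, whose median was 0.04, and 4 were called higher there without the second control library.

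**Figure D3:**
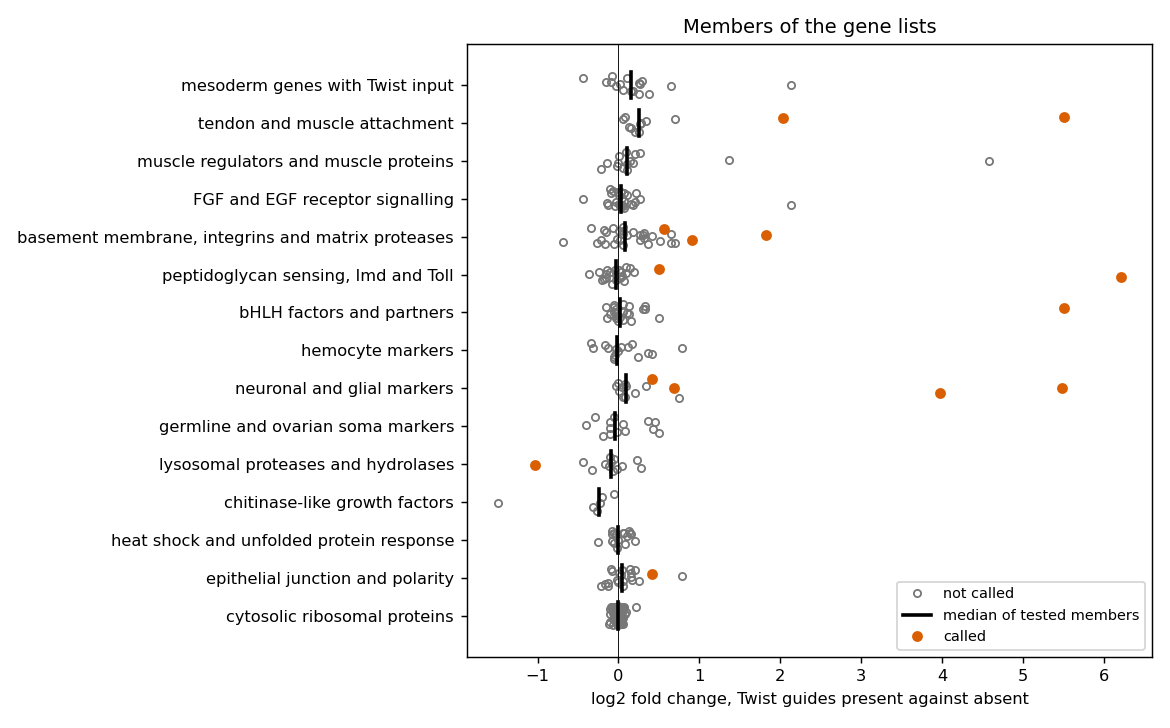
Log2 fold change of each tested member of the 15 gene lists for Twist guides present against absent, with called members filled and the median of each list as a bar. dei, PGRP-LB, acj6 and CCKLR-17D3 lie to the right of every member of their lists that was not called, and the ribosomal proteins lie between -0.12 and 0.22.

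Outside the lists and the rule for named genes lay 33 further called genes. Those named here were picked out of them after their values were seen, and not all are named. Kah (CG17181 in the deposited tables), a zinc-finger factor of the Snail family, was at 14.4 to 16.7 CPM without Twist guides, 48.3 and 39.8 CPM with Twist guides, and 30.9 and 30.1 CPM with both pools. It rose 2.37-fold, from 15.7 ± 0.951 to 37.3 ± 8.54 CPM (SD, n = 4 each; log2 1.23 ± 0.11, adjusted p = 9.3e-05). Signalling genes among the rises were upd3, a ligand of the JAK/STAT pathway (log2 0.60, adjusted p = 0.027), Socs36E, a suppressor of the same pathway (0.41, adjusted p = 0.0087), and fng, a glycosyltransferase that modifies Notch (1.02, adjusted p = 0.038). The call of fng held on leaving out 1 of the 8 libraries, that of upd3 on leaving out 4 and that of Socs36E on leaving out 7. Socs36E was at 125 to 150.4 CPM without and 171 to 201 CPM with Twist guides, which did not overlap. Cytoskeletal and adhesion genes were Rac2, a small GTPase (log2 0.41, adjusted p = 0.0087), Tes (CG6522), a LIM-domain protein (0.47, adjusted p = 0.0053), and zormin, a protein of the muscle Z-disc (0.75, adjusted p = 0.022, or 0.12 with the trend with length removed).

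Other rises picked out after their values were seen were in e, SerT, v and SK. e (ebony), which joins beta-alanine to dopamine and histamine, was at 0.0916 to 0.27 CPM without and 0.832 to 1.75 CPM with Twist guides (log2 2.68, adjusted p = 0.0096). SerT, the serotonin transporter, was at 1.56 to 3.34 CPM without and 4.99 to 6.02 CPM with them (log2 1.14, adjusted p = 0.033). v (vermilion, tryptophan oxygenase) was at 3.34 to 4.17 CPM without and 5.14 to 10.7 CPM with them (log2 0.99, adjusted p = 0.022). None of these groups overlapped. SK, a calcium-activated potassium channel, had at most 0.18 CPM without and 0.735 to 0.917 CPM with Twist guides (log2 3.07, adjusted p = 0.027), and its call, like those of SerT and v, held on leaving out 3 of the 8 libraries, while that of e held for 7. Of the 56 rises, 6 had a mean under 1 CPM over the 8 libraries.

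Falls were few and small. CG6206, now LManII, a lysosomal alpha-mannosidase, was at 8.06 and 12.3 CPM with control guides, 10.8 and 10.4 with Snail guides, 6.17 and 4.85 with Twist guides, and 5.5 and 3.79 with both pools. It fell to 0.488 of its level without Twist guides (log2 -1.03 ± 0.18, adjusted p = 0.018), and the call was lost without the first library with both pools (adjusted p = 0.056), the first Snail library (0.05) or the second (0.058). Ugt35a, a UDP-glycosyltransferase, was at 8.93 to 11.4 CPM without and 4.62 to 7.5 CPM with Twist guides (log2 -0.80 ± 0.16, adjusted p = 0.039). The serpin Spn27A, an inhibitor in Toll signalling and melanization, was at 35.6 to 40 CPM without and 26.6 to 30.7 CPM with them (log2 -0.41 ± 0.07, adjusted p = 0.023). Lac (lachesin), an immunoglobulin-domain protein of septate junctions, was at 37.8 to 43.6 CPM without and 28.7 to 33.2 CPM with them (log2 -0.36 ± 0.07, adjusted p = 0.027). CG3961 (log2 -0.39) and CG1998 (log2 -0.44) also fell, with adjusted p of 0.024 and 0.029. CG6805, whose groups overlapped, was the seventh (log2 -0.36, adjusted p = 0.044). LManII was the only edgeR call among 13 tested lysosomal genes, of which 3 had a log2 fold change above 0 and whose median was -0.09. Over all genes tested 0.0872% were called lower, 47.8% lay above 0 and 8% had an unadjusted p under 0.05. In that list 4 genes had an unadjusted p under 0.05, DESeq2 called 3 (Hexo2, adjusted p = 0.013, and Cp1, 0.014, besides LManII), and without the second control library 3 were called lower and 1 higher. The 6 chitinase-like growth factors all had log2 fold changes below 0 with a median of -0.24, and none was called (1 at an unadjusted p under 0.05, 1 called by DESeq2). For Chit and Idgf3 of these the fitted direction differed without and with Snail guides, as given further on.

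The lists of general cell state held no calls by edgeR. Over all genes tested 8% had an unadjusted p under 0.05. Of 83 tested ribosomal protein genes 36 were above 0 and the median was -0.01, with 0 at an unadjusted p under 0.05 and 0 called by DESeq2. Heat shock and unfolded protein genes (17 tested, median -0.01) had 1 at an unadjusted p under 0.05, hemocyte markers (16 tested, median -0.02) had 4, and germline and ovarian soma genes (14 tested, median -0.04) had 1, and DESeq2 called 0 in each. Without the second control library 1 heat shock and unfolded protein gene, 1 hemocyte marker and 3 germline and ovarian soma genes were called higher.

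The Twist effect was then taken apart into its component comparisons, which share no library: Twist guides against control guides, and both pools against Snail guides. Without Snail guides 75 genes were called (0.934%), 66 higher (0.822%) and 9 lower (0.112%). With Snail guides 73 were called (0.909%), 57 higher (0.71%) and 16 lower (0.199%). Of the 66 rises without Snail guides, 61 had the same direction with Snail guides and 19 were also called there, while of the 57 rises with Snail guides 35 had the same direction without and 19 were called. Over all genes tested 46% had the same direction in both. No gene was called lower in both, and the genes shared in the same direction were 25.3% of the first list and 26% of the second. All 56 rises of the combined effect had the same direction in both comparisons, 18 were called in both, and 9 in neither. The size was larger without Snail guides in 46 of the 56 and larger with them in 10, with medians of 1.38 and 0.89. twi itself was lower with both pools than with Twist guides alone, as given above, and its part in these sizes was not tested. These counts moved strongly with single libraries: without Snail guides they were 510 and 329 without the second and the first control library, 47 without the first library with both pools, and 40 and 49 without the first and the second Twist library. Falls outnumbered rises without the first control library, with 105 higher and 224 lower. With Snail guides the calls numbered 1116 and 1123 without the first and the second control library, and 9 to 12 without either Snail library or either library with both pools.

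**Figure D4:**
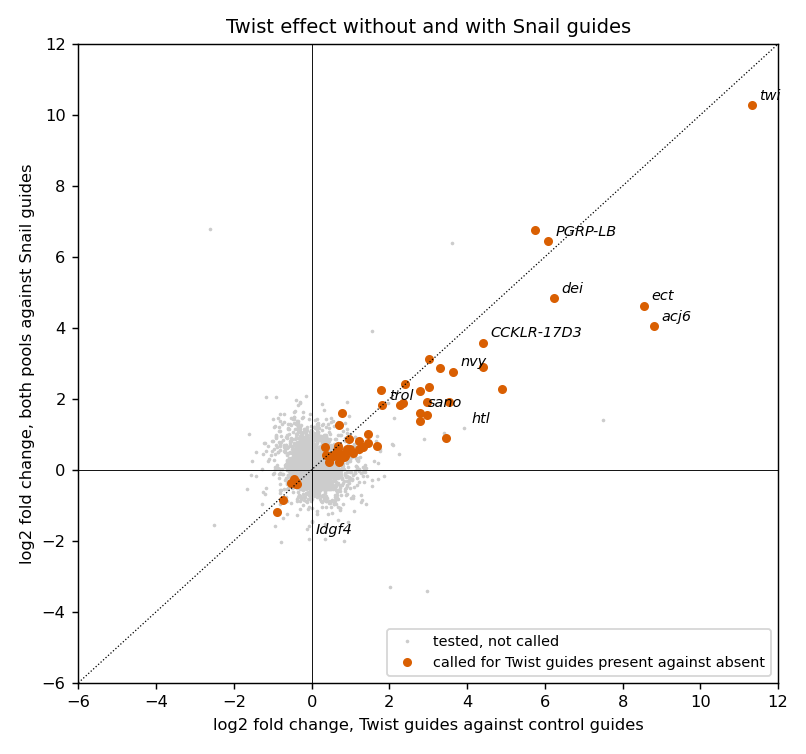
Log2 fold change of each tested gene for Twist guides against control guides (horizontal axis) and for both pools against Snail guides (vertical axis), with genes called for the combined effect filled and a dotted line of equal change. The filled genes at the right lie mostly under the dotted line, with medians of 1.38 and 0.89 for the rises, while trol lies on it.

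A test of the difference between the comparisons called 14 genes (0.174%), with the Twist effect more positive with Snail guides in 8 (0.0996%) and more negative in 6 (0.0747%). The count was 951 without the first control library, 388 without the second, 14 without the first Twist library, and 0 or 1 without any of the other 5. sano was the only gene called both for the combined effect and for the difference: its log2 fold change was 2.80 ± 0.11 without and 1.61 ± 0.10 with Snail guides, a difference of -1.19 ± 0.15 (adjusted p = 0.013), and it rose in both.

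htl, the FGF receptor of the mesoderm, had the smallest p for a difference. It was at 1.65 and 0.835 CPM with control guides, 8.11 and 8.18 with Snail guides, 19.9 and 18.2 with Twist guides, and 19.9 and 16.9 with both pools. The libraries with Twist guides overlapped whether or not Snail guides were present, while those without Twist guides were higher with Snail guides. The log2 fold change was 3.92 ± 0.23 without Snail guides (adjusted p = 4.4e-07) and 1.18 ± 0.17 with them (adjusted p = 0.006), and the difference was -2.74 ± 0.31 (adjusted p = 0.0059). In the combined effect, which assumes equal changes in both, htl had a log2 fold change of 2.13 ± 0.51 and was not called (adjusted p = 0.3). It was called when the 4 groups were fitted and the comparisons averaged (adjusted p = 2.8e-07).

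For the other 3 genes named for a called difference the fitted direction turned between the comparisons. Sans was at 37.3 and 41.1 CPM with control guides, 51.3 and 52.3 with Snail guides, 67.3 and 74.1 with Twist guides, and 49 and 44.7 with both pools. It rose without Snail guides (log2 0.85 ± 0.09, adjusted p = 0.00023) and had -0.14 ± 0.09 with them (adjusted p = 0.42), a difference of -1.0 (adjusted p = 0.013). lig3, a DNA ligase, was at 75.6 and 70.5 CPM with control guides, 56.9 and 60.7 with Snail guides, 54.2 and 52.5 with Twist guides, and 75.7 and 80.4 with both pools. It fell without Snail guides (log2 -0.45, adjusted p = 0.023) and rose with them (0.41, adjusted p = 0.045), and the difference was 0.86 (adjusted p = 0.016). Either pool alone was thus lower than control guides, and both pools together were at or above them. CG13868 had log2 fold changes of -0.25 (adjusted p = 0.44) and 0.59 (adjusted p = 0.0083), a difference of 0.84 (adjusted p = 0.025). The differences of sano, Sans and lig3 were called on leaving out 3 of the 8 libraries, that of CG13868 in 2 and that of htl in 6.

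**Figure D5:**
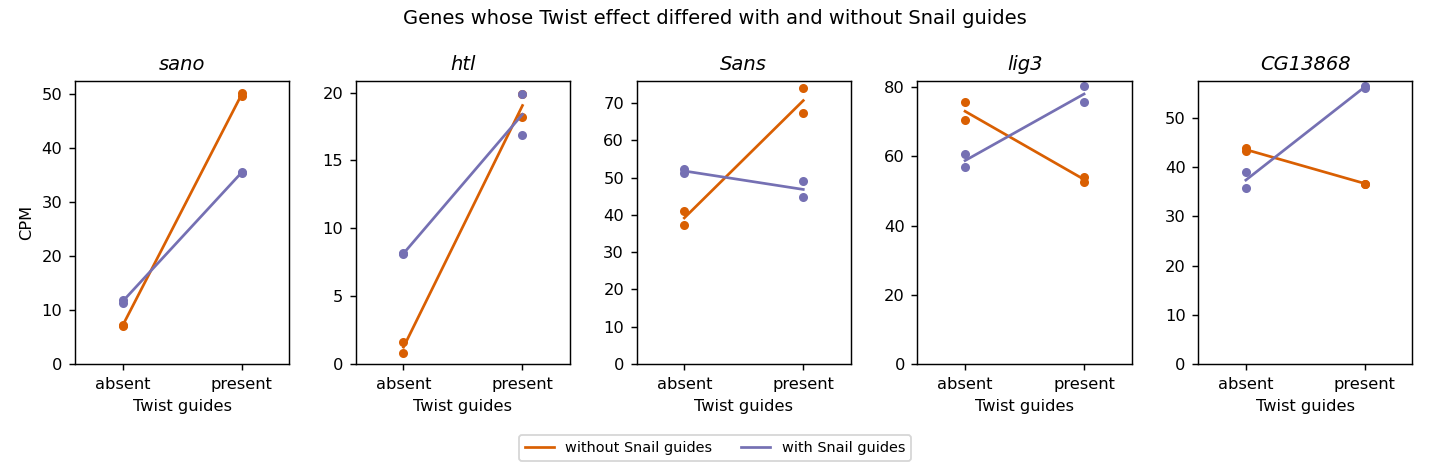
Level in CPM of the 5 genes named for a difference of the Twist effect, without and with Twist guides, in libraries without and with Snail guides. Points are libraries and lines join the means of 2, and the lines cross for htl, sano, Sans, lig3 and CG13868, with htl reaching 16.9 to 19.9 CPM in all 4 libraries with Twist guides.

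Of the 9 further genes with a called difference, 3 rose with Twist guides in the absence of Snail guides and had smaller values in their presence, named here after their values were seen. btn (buttonless), a homeobox gene of mesodermal cells at the embryonic midline, was at 2.2 and 1.11 CPM with control guides, 2.25 and 2.34 with Snail guides, 15.5 and 19.7 with Twist guides, and 5 and 4.34 with both pools. Its difference was -2.37 (adjusted p = 0.043). Pu (Punch, GTP cyclohydrolase of pteridine synthesis) was at 1.28 and 1.49 CPM with control guides, 2.61 and 2.75 with Snail guides, 11 and 9.48 with Twist guides, and 4.83 and 5.08 with both pools, a difference of -1.99 (adjusted p = 0.043). pyd3, an enzyme of pyrimidine breakdown, had 13.6 and 12.9 CPM with Twist guides and 2.84 to 6.21 CPM in all other libraries, a difference of -2.01 (adjusted p = 0.029). The other 6, among them stj, a calcium channel subunit (0.98, adjusted p = 0.043), had positive differences of 0.83 to 1.19.

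Several list members that were not called for the combined effect were called in a single comparison, among them Idgf4 and Cp1. Only without Snail guides, if was called higher (log2 1.39, adjusted p = 0.013) and Chit lower (-0.57, adjusted p = 0.026). Only with Snail guides, Idgf3 (-0.63, adjusted p = 0.037) and Hexo2 (-0.48, adjusted p = 0.02) were called lower and rhea higher (0.42, adjusted p = 0.038). Chit and Idgf3 each had 0.11 in the other comparison. Idgf4, a chitinase-like growth factor, was at 0.824 and 1.3 CPM with control guides, 15.6 and 13.5 with Snail guides, 0.915 and 1.1 with Twist guides, and 3.83 and 3.6 with both pools. It fell with Twist guides where Snail guides were present (log2 -1.96, adjusted p = 0.00029) and had -0.07 where they were absent (adjusted p = 0.99), but the difference was not called (adjusted p = 0.094). Cp1, now CtsL1, a lysosomal cathepsin, was at 3876 and 3297 CPM with control guides, 2359 and 2399 with Snail guides, 2000.1 and 2251 with Twist guides, and 2246 and 2099 with both pools. It fell without Snail guides (log2 -0.75, adjusted p = 0.0012) and had -0.13 with them (adjusted p = 0.49), and the difference was not called (adjusted p = 0.092).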

How the data were processed

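The authors deposited 1 table of raw counts per gene symbol for each of the 8 libraries. TopHat2 (version 2), Bowtie2, HTSeq and DESeq are named in the submitters' processing notes, without role or order, and the sources used here give neither genome build nor strand setting. RNA was taken as total RNA and made into Illumina mRNA libraries, per the labels' protocols. Symbols were matched to Ensembl 115 (BDGP6.54): 10669 current, 3034 older and 458 unmatched of 14161.

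Counts were tested with edgeR 4.0.16 in R 4.3.3 (filterByExpr, minimum count 10, at least 99.94% of counts kept; TMM factors 0.983 to 1.02; robust quasi-likelihood fit on the presence of Snail and of Twist guides, 5 residual degrees of freedom) with Benjamini-Hochberg adjustment over all 8029 genes at 0.05. The 2 comparisons without and with Snail guides and their difference came from a fit of 4 groups (4 residual degrees of freedom). Every adjusted p is from edgeR unless DESeq2 1.42.0 is named. Standard errors of log2 fold changes were worked back from the test, as the absolute log2 fold change over the square root of its F statistic. The series calls the libraries of a group biological replicates. For the 2 comparisons and their difference, p-values measure only the spread between replicates, pooled over groups. For the combined effect the spread also takes in any difference of the Twist effect without and with Snail guides. sano, for example, had an adjusted p of 0.0053 there, against 3.5e-09 when 4 groups were fitted and the comparisons averaged. Where a library was left out, the lone library of its group was assumed to vary like the others. Counting intervals (confidence level 95%) and floors cover counting error only.

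The named genes are twi and sna; the 15 largest rises and 10 largest falls among called genes whose libraries did not overlap and averaged at least 1 CPM (6 falls qualified); up to 4 members of each of 15 lists; neighbours of twi; and up to 5 genes with a called difference. The members and lists were chosen with earlier results of these data known. Alternatives were normalisation by DESeq2 size factors or by library size, testing without the filter or with one of 1 CPM in 2 libraries, a replicate block, DESeq2, removal of a lowess trend with transcript length (7863 genes), no covariate, glmTreat at a fold of 1.5, a threshold of 0.01, the 2 groups alone and each library left out. On simulated data of the same size the share of false calls lay above the nominal threshold, for the combined effect and for both comparisons, and the test of the difference made calls where none had been simulated.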

Additional observations from a re-analysis of the deposited data

Results flagged for a closer look

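In 5 of 160 groups of 4 libraries of the 80 genes examined, the highest or lowest library stood apart by more than Dixon's critical value. Each group joined libraries of different guide pools, so that this share cannot be set against a chance rate. Without Twist guides these were ect in the first Snail library (0.0901 CPM, 0 in the others), acj6 in the second Snail library (0.25 CPM), lmd in the first control library (0.0916 CPM) and Chit in the first control library (647 CPM). With Twist guides it was Dsor1 in the first library with both pools (30.5 CPM). The flagged libraries of ect, acj6 and lmd held 1, 3 and 1 reads, against 0 in the other libraries without Twist guides.

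The Twist effect differed between the comparisons without and with Snail guides, by the edgeR test of the difference, for htl (log2 -2.74), sano (-1.19), Sans (-1.0), lig3 (0.86) and CG13868 (0.84), given as the effect with minus that without Snail guides.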

How the results depend on the processing

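For Twist guides present against absent, 63 genes were called, and 104 (83 higher, 21 lower) with the 4-group average, 100 (83 and 17) with DESeq2, 34 (31 and 3) without the covariate, 22 with glmTreat, 34 at a threshold of 0.01, and 29 to 488 with a library left out. Without Snail guides the 75 calls became 128 with no filter and 39 with these groups alone, and ran from 40 to 510 with a library left out. With Snail guides the 73 calls became 436 with no filter, 183 with DESeq2 and 1546 with these groups alone, and ran from 9 to 1123; with the trend with transcript length removed they were 65 higher and 40 lower (61.9% higher against 78.1%). The 14 called differences became 236 with no filter, 64 with DESeq2 and 39 (15 and 24) with the length trend removed, and ran from 0 to 951. The cause was not tested. lig3 changed sign without the first or second control library (0.08 and 0.04) and without the first or second Twist library (0.07 and 0.08; -0.13 to 0.08 over all libraries left out), and sna did so in the 4-group average (-0.40); neither was called for the combined effect. The 30 called named genes kept their direction in all 510 recomputed values and their call in 445. With the replicate number as a block the counts were 51, 76, 55 and 18. Differences between replicates correlated across groups at -0.15 to 0.14, which gave no sign that the numbers pair the samples. Such a correlation over all genes cannot show whether replicates of the same number shared a batch. A level under about 1 CPM rests on few reads in a library, and folds from 0 are bounds.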
